A study of Mus musculus with 6 samples.

Results

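Ribosomal RNA processing and ribosome assembly factors were examined in mouse embryos at embryonic day 8.5 that carried 1 working copy of Tcof1. The set held 60 genes listed by name: 7 core proteins of small nucleolar ribonucleoproteins (snoRNPs), 30 factors of the small ribosomal subunit, 20 of the large subunit and 3 general nucleolar proteins. On the array 59 of the 60 had a probe set, a group of short oligonucleotides read as 1 signal, that was annotated to that gene alone, out of 18193 genes named in this way. The gene listed as Utp11l was found under its newer symbol Utp11, and Mrto4 was left out because its probe set was annotated to several genes.

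The embryos were littermates, 3 wild type and 3 heterozygous (Tcof1+/-), and the RNA of each embryo was measured on 1 Affymetrix Mouse Genome 430 2.0 array. The labels name neither strain nor sex, and say no more of the Tcof1 allele than +/-. All 6 embryos were untreated as far as the labels say, and a whole embryo mixes all of its tissues, so that fewer cells of a type and less RNA per cell cannot be told apart. Signals are linear, in arbitrary units, and the authors' scaling gave each array the same 2% trimmed mean of 150, so the differences below are relative to the overall brightness of an array. Differences are heterozygous minus wild type on a log2 scale after adding 1.87 to each signal. They were tested with limma over 27022 probe sets, and a difference was called at an adjusted p (Benjamini-Hochberg) under 0.05.

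Ribosomes are built in the nucleolus, where RNA polymerase I makes a long precursor RNA that is then modified, cut and folded onto ribosomal proteins. Box C/D snoRNPs methylate the precursor and box H/ACA snoRNPs convert uridines to pseudouridine, while a large particle around the U3 snoRNA, the small-subunit processome, releases the small subunit. Separate sets of helicases, GTPases and scaffold proteins mature the large subunit. Treacle, the product of Tcof1, is a nucleolar protein that supports transcription by RNA polymerase I and is known to bind Nop56, a snoRNP core protein. Treacher Collins syndrome, a disorder of the facial skeleton, arises in people who lack 1 functional copy of TCOF1, and the comparison addressed whether transcripts of the assembly machinery differ in embryos with less treacle.

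Log2 signals of any pair of arrays had a correlation of 0.964 to 0.974. Tcof1 on its brightest probe set gave 382, 393 and 387 in the wild types and 222, 179 and 231 in the heterozygotes, with a log2 difference of -0.88 (SE 0.12, limma adjusted p = 0.0352), a call that was lost with any 5 of the 6 arrays (adjusted p from 0.0586 to 0.190). With all 6 it was also lost once scan day entered the limma fit (adjusted p = 0.0906) and without the intensity trend (0.413). The dimmer probe sets of Tcof1 differed by -0.61 and -0.70, also without overlap, but were not called (limma adjusted p = 0.582 and 0.385). Since the labels do not locate the mutation, whether these probes fall inside it is unknown. Of the tissue markers listed, 7 of 8 for brain and neural tube, 8 of 8 for heart and all 6 measured for somites and presomitic mesoderm were bright enough to be tested, whereas 3 of 5 maternal decidua markers were too dim. Tissue markers varied between embryos: the summed signal of 8 genes taken for yolk sac endoderm ran from 1885 to 9611 in wild types and from 875 to 14885 in heterozygotes. One of these was Trh, matched in place of the listed marker Trf, with signals of 20.1 to 40.6 per embryo. The sum of 6 primitive erythroid markers ran from 5788 to 13641 and from 306 to 11211. That of 8 heart markers ran from 9752 to 11549.9 and from 10261 to 13124, and that of 6 mesoderm markers from 1281 to 1816 and from 1209.5 to 1397. The sum over 8 brain and neural tube markers did not overlap, at 2313 to 2446 in wild types and 1685 to 2022 in heterozygotes. All 7 of these that were tested were lower in heterozygotes, with a median log2 difference of -0.53. Genotypes did not overlap for 6 of the 7 (85.7%), beside 12.2% of all tested probe sets, and 0 were called (limma adjusted p from 0.457 to 0.799). The part of this variation in the values below was not tested.

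None of the 59 factors was called higher or lower, and the differences were small. Of the 59, 34 lay above 0 and 25 below, with a median log2 difference of 0.02 and a range from -0.31 (Imp3) to 0.55 (Nol6). Over all tested probe sets the median was 0.00 and 50.9% lay above 0. The limma adjusted p of the 59 ran from 0.700 to 0.994. Over all tested probe sets 22 (0.0814%) were called, 0.0777% higher and 0.0037% lower, so a count of 0 among 59 genes is near the background and says little by itself. At an unadjusted p under 0.05 there were 7 of 59 (11.9%), 4 higher and 3 lower, beside 6.22% of all tested probe sets (3.01% higher and 3.21% lower). That count ran from 2 to 7 over the alternative settings. It was 2 when the array medians were made equal, 2 without the intensity trend of limma, and 4 after quantile normalization. It was also 4 without wild-type embryo 2 or without heterozygous embryo 3. These are not all of the settings that lowered it.

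The intervals carry more than the calls. For 56 of the 59 genes the 95% confidence interval of the difference, from limma and not adjusted for the number of genes, lay inside a 1.5-fold change in either direction, and for 29 it lay inside 1.2-fold. The same shares over all tested probe sets, which were not matched for brightness, were 48.4% and 9.41%. The interval counts come from the limma fit with the intensity trend and were not recomputed without it or under the other settings. The 3 genes whose interval reached past 1.5-fold were Nol6, Nol10 and Nol8. The factors gave bright signals, with mean signals between 86.9 and 8067, against a highest signal of 13.5 for bacterial control probe sets that have no target in the sample. The median spread within a genotype was 0.10 on the log2 scale, beside 0.22 over all tested probe sets and 0.11 over the 2883 tested probe sets with mean signals between 548 and 1620, the middle range of the factors. The median size of the difference, regardless of sign, was 0.07 for the factors and 0.08 for those 2883 probe sets.

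**Figure D1:**
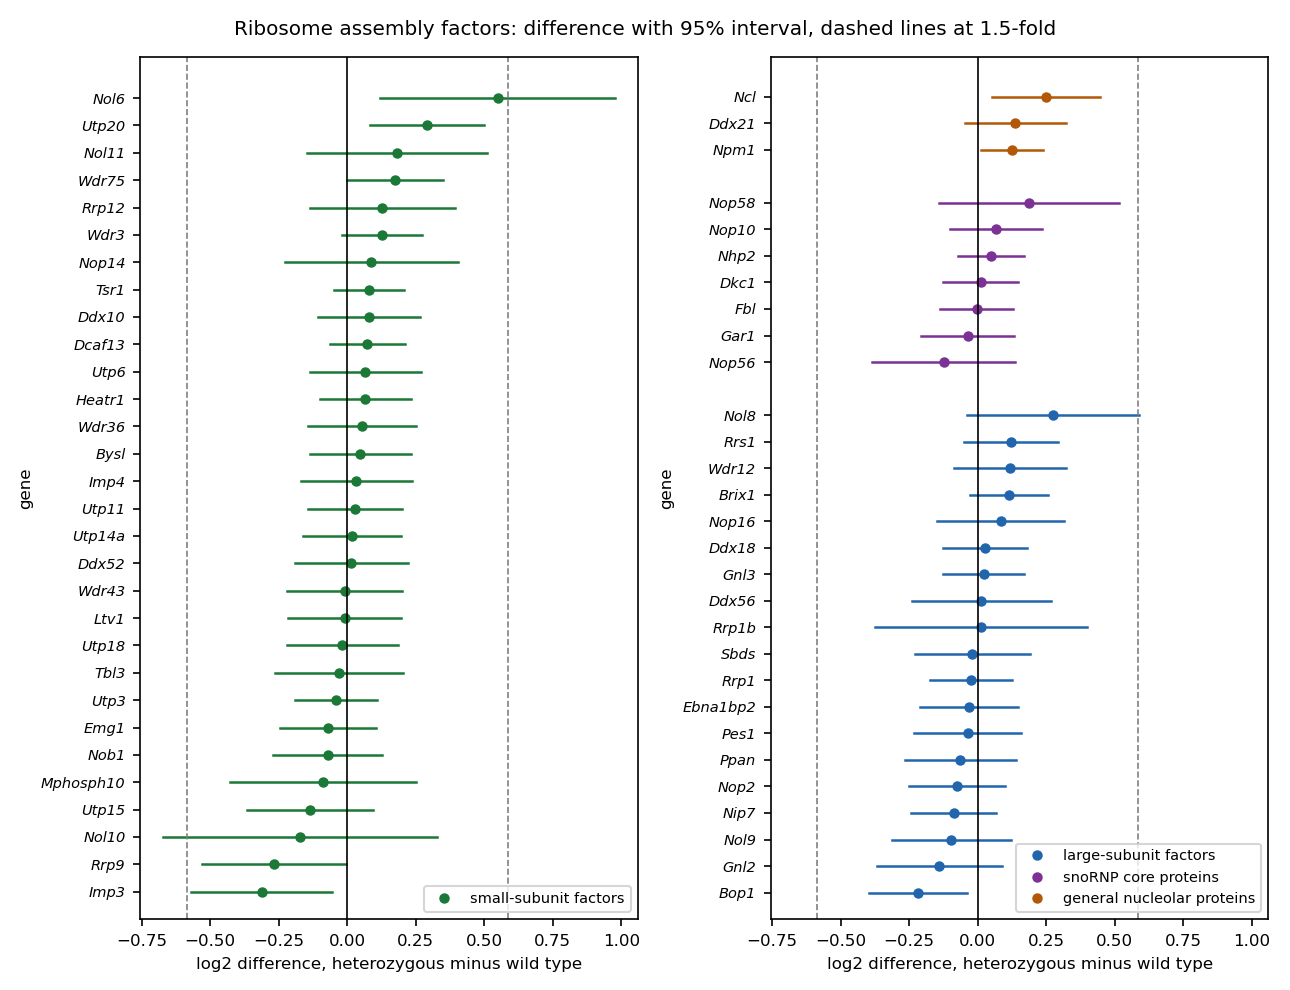
Log2 difference, heterozygous minus wild type, of each of the 59 factors on its brightest probe set (points) with the 95% confidence interval from limma (bars, n = 3 per genotype), by class. The dashed lines mark a 1.5-fold change in either direction, and the intervals of 56 of 59 genes lie between them.

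The snoRNP core proteins, which carry out the chemical modification of ribosomal RNA, had a median of 0.01, and 4 of 7 were above 0. Fbl encodes fibrillarin, the methyltransferase of the box C/D particles. Its signals were 4090.4, 3973 and 3873 in wild types and 3959.9, 3767 and 4187 in heterozygotes, so that the genotypes overlapped fully, and the 95% interval of the fold ran from 0.910 to 1.09. Nop56 and Nop58 encode the paired scaffold proteins of the same particles. Nop56, the partner of treacle, gave 1602, 2159 and 1662 against 1499, 1643 and 1803, with an interval of the fold from 0.766 to 1.10. Wild-type embryo 2 alone stood high, and the difference of -0.12 became 0.01 without it. The second probe set of the gene differed by 0.08. Nop58 gave 1732, 1209 and 1217 against 1756, 1330.2 and 1613, with wild-type embryo 1 above the other wild types and between the heterozygotes. The difference was 0.19 with it and 0.36 without.

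Dkc1, the gene of the box H/ACA pseudouridine synthase dyskerin, gave 2235, 2327 and 2194 against 2187, 2298 and 2323, a difference of 0.01 (SE 0.06). Nhp2 and Nop10 encode small partners of dyskerin in the particle. Nhp2 gave 3496, 3329 and 3392 against 3473, 3557 and 3536, and Nop10 gave 3906, 4083 and 3385 against 3860.3, 3899.9 and 4126. Both overlapped between genotypes, with differences of 0.05 and 0.07, and Gar1, the fourth protein of the particle, differed by -0.04. Second probe sets read otherwise for Nop10 and Nhp2. The dimmer probe set of Nop10 gave 1100.3, 1024 and 1034 in wild types and 818, 861 and 921 in heterozygotes, all 3 below all wild types, a difference of -0.28 (SE 0.08, unadjusted p = 0.00492, limma adjusted p = 0.649). The dimmer probe set of Nhp2 gave 939, 819.9 and 839 against 666, 742 and 793, again without overlap (-0.24, SE 0.09, adjusted p = 0.775). The dimmest of 3 probe sets of Dkc1 went the other way, at 659.6, 583 and 542 against 717, 672 and 683 (0.22, SE 0.09, adjusted p = 0.787). These 3 were the dimmer probe sets of any factor with an unadjusted p under 0.05, out of 53 tested, beside 6.22% of all tested probe sets. The count is near that share, and the 3 did not share a direction. They were picked out after their values were seen. The 3 prime minus 5 prime log2 signal of Gapdh, which grows as RNA is degraded, averaged 0.91 ± 0.11 in wild types and 0.76 ± 0.07 in heterozygotes (SD, n = 3). It was 0.85, 1.04 and 0.84 in wild types and 0.81, 0.68 and 0.81 in heterozygotes, without overlap. This measure thus went with genotype, and the effects of the 2 cannot be told apart here. Its part in the disagreement between probe sets, and in the other differences given here, was not tested. The position of each probe set in its transcript was not used.

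Small-subunit factors numbered 30, of which 18 lay above 0 and 12 below, with a median of 0.03. Utp20, a large scaffold protein of the processome, had the smallest unadjusted p of the 59 (0.0112). It gave 599, 713 and 628 in wild types and 807, 827 and 736 in heterozygotes. Every heterozygote lay above every wild type, at 1.22 times the wild-type level (95% interval from 1.06 to 1.41, limma adjusted p = 0.700). Nol6, another processome component, gave 80.5, 74.0 and 56.3 against 124, 90.6 and 95.6, the largest difference among the 59 at 0.55 (SE 0.19, adjusted p = 0.742). It was also the dimmest of the 59, and its second probe set gave 41.8, 55.7 and 39.3 against 22.1, 35.9 and 62.1, a difference of -0.28.

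Imp3, a protein of the U3 snoRNP, gave 514, 479 and 430.4 in wild types and 410.0, 332 and 405 in heterozygotes, without overlap and at 0.805 times the wild-type level (interval from 0.674 to 0.962, limma adjusted p = 0.759). Its partner Imp4 differed by 0.03 and Mphosph10, which binds both, by -0.09 (0.35 on its second probe set). Rrp9, the U3-specific protein, gave 578, 641 and 499.8 against 529, 469 and 428, and heterozygous embryo 1 lay above wild-type embryo 3. Its difference was -0.27 (SE 0.12, adjusted p = 0.793). Imp3 and Rrp9 each had 1 probe set, so no second reading was available. The difference of Imp3 was -0.43 over the 4 arrays scanned on day 1 and -0.09 between the 2 arrays scanned on day 2, whereas that of Rrp9 was -0.29 and -0.22.

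Heatr1, a processome protein that is also needed for transcription by RNA polymerase I, gave 871, 854 and 941 against 943, 932 and 914, a difference of 0.07 (SE 0.07). Utp14a, which activates the helicase that frees U3 from the precursor, gave 986, 899.6 and 924 against 932, 900.0 and 1015, and its genotypes overlapped. Wdr75 (0.17) and Wdr3 (0.13), both WD-repeat proteins of the processome, and Tsr1 (0.08), a factor of the late precursor of the small subunit, had heterozygotes that all lay above the wild types. Their limma adjusted p values were 0.793, 0.810 and 0.854. The other late factors Ltv1 (-0.01), Bysl (0.05) and Nob1 (-0.07), the last of which makes the final cut of the small-subunit RNA, overlapped between genotypes. Nol10 had the widest interval of the 59, from -0.67 to 0.33, with heterozygous embryos at 97.4, 201 and 142 around wild types at 151, 164 and 161. The remaining 15 (Nop14, Nol11, Utp3, Utp6, Utp11, Utp15, Utp18, Wdr43, Wdr36, Rrp12, Ddx10, Ddx52, Dcaf13, Emg1 and Tbl3) overlapped between genotypes, with differences from -0.14 (Utp15) to 0.18 (Nol11) and adjusted p from 0.859 to 0.990.

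Among the 19 large-subunit factors 9 lay above 0 and 10 below, with a median of -0.02. Bop1, Pes1 and Wdr12 form the PeBoW complex, which is needed for maturation of the large-subunit RNA. On the brightest probe sets their differences did not share a sign. Bop1 gave 756, 775 and 736 in wild types and 685, 618 and 647 in heterozygotes, without overlap and at 0.860 times the wild-type level (interval from 0.760 to 0.973, limma adjusted p = 0.759). Its second, dim probe set differed by -0.24. Pes1 gave 1267, 1129.6 and 1129 against 1099.7, 1265 and 1078, with overlap, and Wdr12 gave 617, 572 and 579 against 592, 626 and 705. Pes1 differed by -0.04 and Wdr12 by 0.12, with adjusted p of 0.953 and 0.862. On the dimmer tested probe sets Pes1 differed by 0.14, opposite in sign to its brightest, and Wdr12 by 0.27.

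Brix1, a factor of early large-subunit particles, gave 1865, 1956 and 1950.2 against 1993, 2164 and 2093, a separation of the genotypes by a small step (0.11, SE 0.06, limma adjusted p = 0.824). Rrs1, which acts in bringing the 5S RNA particle into the precursor, gave 2123, 2161 and 2297 against 2197, 2621 and 2357, and heterozygous embryo 1 lay among the wild types. It differed by 0.12, and by 0.10 on its other probe set. Nol8 gave 387, 271 and 292 against 346, 391 and 401. Wild-type embryo 1 was as high as the heterozygotes there, the difference was 0.27 with it and 0.43 without, and the other probe sets of Nol8 differed by -0.01 and -0.07. Nop2, a methyltransferase of the large-subunit RNA, had all heterozygotes below all wild types at a difference of -0.07. The rest of the class, including the GTPases Gnl2 (-0.14) and Gnl3 (0.02), the helicases Ddx18 (0.03) and Ddx56 (0.01) and Sbds (-0.02), which acts late in large-subunit maturation, overlapped between genotypes. So did Nop16 (0.08), Nol9 (-0.10), Ebna1bp2 (-0.03), Rrp1 (-0.02), Rrp1b (0.01), Nip7 (-0.09) and Ppan (-0.06).

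The 3 general nucleolar proteins all lay above 0. Ncl encodes nucleolin, an abundant protein of nascent ribosomal RNA, and gave 6106, 4800.4 and 6122 in wild types and 6702, 6625 and 6791 in heterozygotes. All heterozygotes were higher, at 1.19 times the wild-type level (interval from 1.04 to 1.36, limma adjusted p = 0.742), but wild-type embryo 2 was far below the other wild types and the difference was 0.13 without it in place of 0.25. The other probe sets of Ncl differed by -0.01 to 0.30. Npm1, the gene of the nucleolar chaperone nucleophosmin, gave 7409, 7697 and 8045 against 8239, 8657 and 8354. That separation (0.13, SE 0.05, adjusted p = 0.781) was not seen on its second probe set, which differed by 0.01 with overlap. Ddx21, a helicase of ribosomal RNA synthesis and processing, gave 1096, 1050.0 and 1146 against 1208, 1107 and 1312 (0.14, SE 0.08, adjusted p = 0.838), and heterozygous embryo 2 lay among the wild types.

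**Figure D2:**
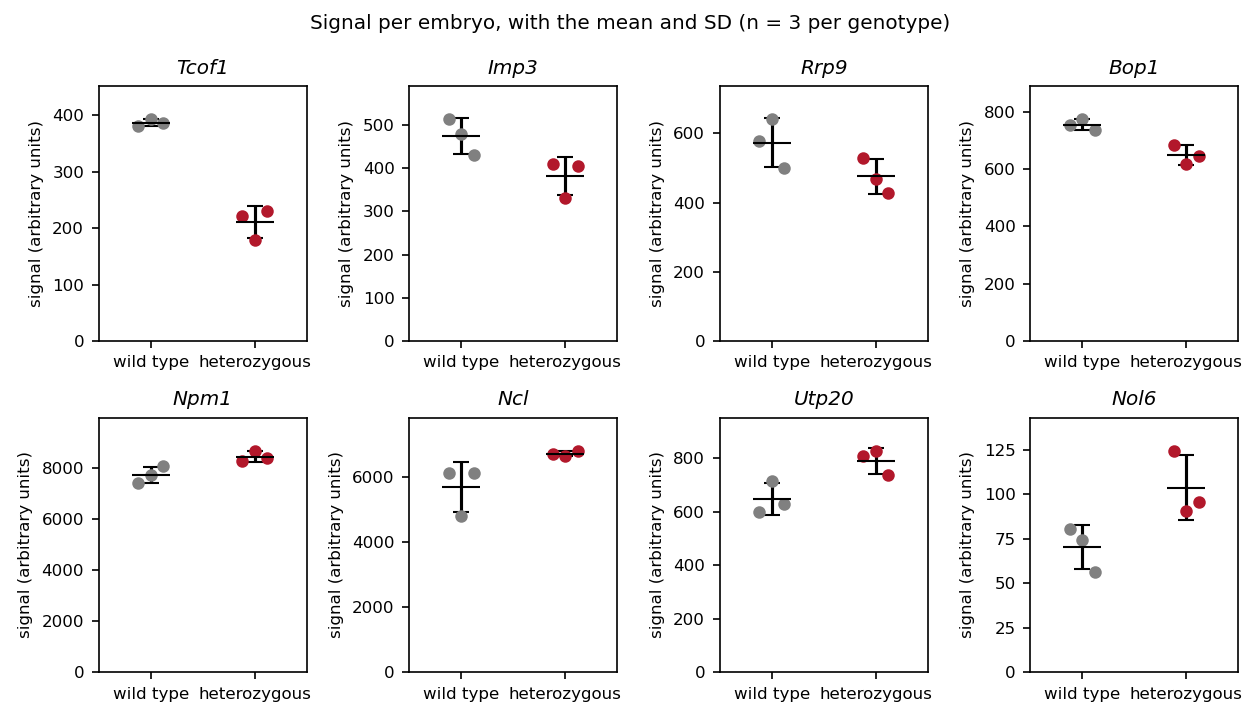
Signal per embryo (points), with the mean and SD (n = 3 per genotype), for Tcof1 and the 7 factors with an unadjusted p under 0.05, on the brightest probe set of each gene, with axes from 0. Tcof1 fell from a mean of 387 to 211, whereas the means of Imp3, Rrp9, Bop1, Npm1, Ncl, Utp20 and Nol6 differed by less on the log2 scale and none of these 7 passed after adjustment.

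In all, 11 of 59 factors (18.6%) separated the genotypes without overlap, beside 12.2% of all tested probe sets. Of these, 8 were higher in heterozygotes (Ncl, Npm1, Brix1, Utp20, Nol6, Wdr75, Wdr3 and Tsr1), where the background share is 6%, and 3 were lower (Imp3, Bop1 and Nop2), where it is 6.18%. All 59 brightest probe sets passed the filter on low values.

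The median over the 59 factors, relative to the wild-type mean, was 0.00, 0.03 and 0.05 for the heterozygotes numbered 1, 2 and 3. For the wild types, in the same order, it was 0.02, 0.00 and -0.02. Of the 59, 31, 35 and 38 lay above the wild-type mean in the 3 heterozygotes. Among the heterozygotes, embryo 1 was nearest the wild-type mean, and in it the erythroid markers were lowest and the yolk sac markers highest. The yolk sac markers were lowest in heterozygous embryo 2. Any link of these markers to the medians was not tested. All 7 snoRNP proteins lay above the wild-type mean in heterozygous embryo 3 and 3 of 7 did so in each of the other heterozygotes. The median over all factors was -0.02 within the first scan day and 0.07 within the second, and for the snoRNP proteins -0.04 and 0.11.

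**Figure D3:**
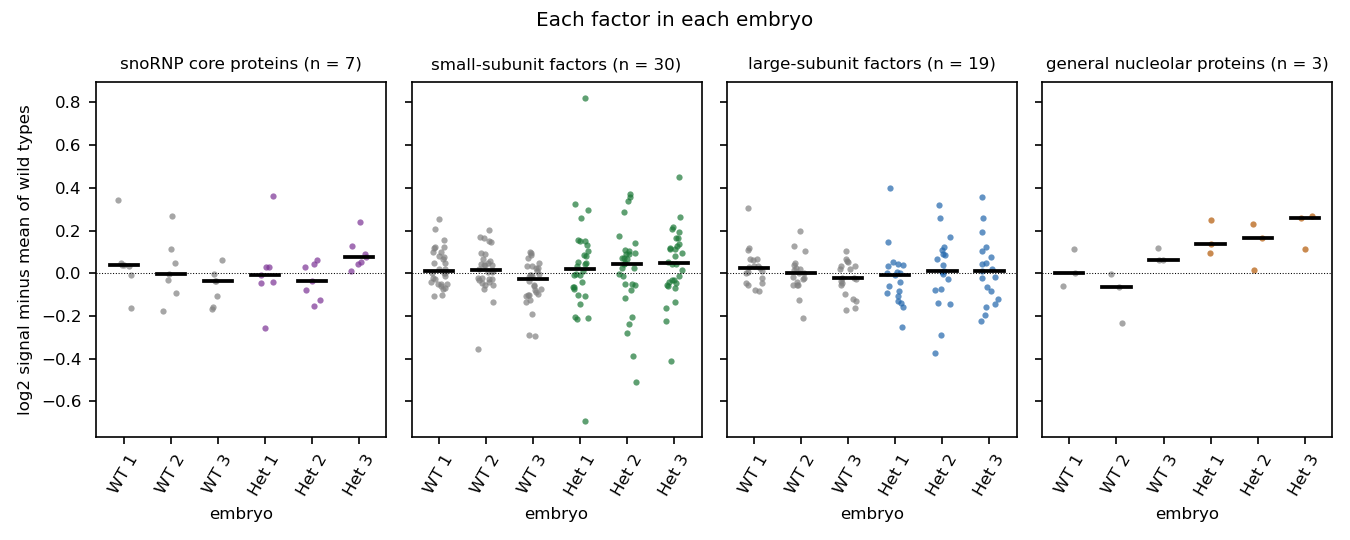
Log2 signal of each factor minus its mean over the wild types, by embryo and class (points), with the median of the class (bar). Wild types are grey and heterozygotes coloured. The medians over all 59 factors, which are not drawn, lie between -0.02 and 0.05 in all 6 embryos. Class medians of the snoRNP proteins ran from -0.04 to 0.07 over the embryos. Those of the 3 general nucleolar proteins were 0.14 to 0.26 in the heterozygotes.

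Of the 38 factors with several tested probe sets, 16 had the same sign on all of them and 22 had mixed signs. Among the same-signed genes were Bop1, Brix1, Rrs1, Bysl and Tsr1, and among the mixed were Nol6, Nop10, Nhp2, Nol8 and Wdr75. Across all 112 tested probe sets of the factors 0 were called by limma, beside 0.0814% of all tested probe sets. An unadjusted p under 0.05 was found for 10 of the 112, beside 6.22% of all tested probe sets. A further 7 probe sets were too dim to be tested.

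**Figure D4:**
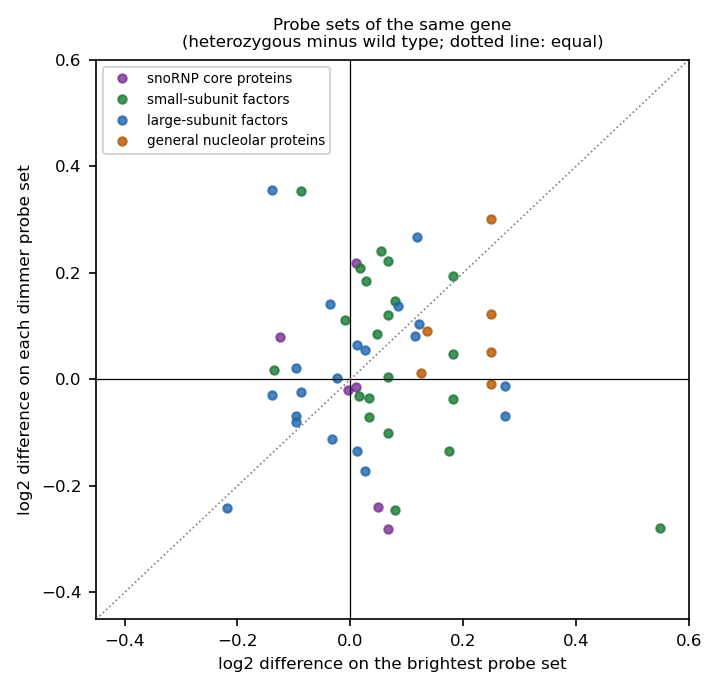
Log2 difference (heterozygous minus wild type) of each of the 53 dimmer tested probe sets against that of the brightest probe set of the same gene, coloured by class, with the line of equality dotted. Points above 0 on one axis and below 0 on the other are genes whose probe sets differ in sign, with Nol6 at 0.55 and -0.28 farthest from the line.

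Other genes of the pathway, from lists of non-members, likewise held 0 genes called by limma, beside 0.0814% of all tested probe sets. Of 70 other ribosome biogenesis factors 43 lay above 0 and 27 below, with a median of 0.04. At an unadjusted p under 0.05 there were 6 (8.57%), 4 higher and 2 lower, beside 6.22% of all tested probe sets. Mak16, a large-subunit factor, gave 1035, 1152 and 1052 in wild types and 1353, 1339.6 and 1343 in heterozygotes, 1.25 times the wild-type level (interval from 1.12 to 1.39, adjusted p = 0.392). Pelp1, part of a complex that remodels large-subunit precursors, gave 389, 381 and 379 against 331, 299.7 and 261 (-0.37, SE 0.11, adjusted p = 0.655). Both had a smaller unadjusted p than any of the 59, on the brightest probe set.

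RNA polymerase I machinery had 9 of 19 above 0 and a median of -0.01, with 0 under an unadjusted p of 0.05. Its genotypes did not overlap for 5 of 19 (26.3%), 1 higher and 4 lower, beside 12.2% of all tested probe sets. Its smallest p values belonged to the subunit genes Polr1e (0.20) and Polr2f (-0.15), with limma adjusted p of 0.799 and 0.801. The RNA exosome, which trims and degrades processing products, had 5 of 13 above 0 and a median of -0.03, with 0 under an unadjusted p of 0.05. Its catalytic subunit gene Dis3 differed by 0.20 and Exosc5 by -0.17 (adjusted p of 0.810 and 0.847). Of the Myc network, whose activators drive transcription of assembly factors in many cells, 5 of 11 lay above 0 with a median of -0.03, and again 0 had an unadjusted p under 0.05. Mycl (-0.47) and Mxd4 (-0.27) had the smallest p, with adjusted p of 0.810 and 0.814. Genotypes did not overlap for 2 of 13 exosome genes (15.4%), 3 of 11 Myc network genes (27.3%) and 13 of the 70 other factors (18.6%).

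Some of the factors are hosts of snoRNA genes, whose products guide the snoRNPs. In the RefSeq gene table of GRCm38.p6, 8 of 59 factors (13.6%) enclosed at least 1 annotated snoRNA gene, against 372 of 21900 protein-coding genes (1.70%); the strand of each was not compared. Nop56 held 5, among them Snord57 and Snord110, and Nop58 held 4, among them Snord11 and Snord70. Gnl3 held 3, among them Snord19 and Snord69, Ncl held Snora75 and Snord82, and Wdr43, Ppan, Tsr1 and Dkc1 held 1 to 3 each. The differences of these host genes ran from -0.12 (Nop56) to 0.25 (Ncl).

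Promoters, from 250 bases before to 50 after the start, were listed by RefSeq (GRCm38.p6) for 46 of the 59. These had a median of 21.5 CpG dinucleotides against 13 over 17492 protein-coding genes. Among 9 motifs searched on both strands, an ETS motif (CCGGAAGT) was found in 13 of 46 (28.3%) against 5.69% of all genes, an E-box (CACGTG), the motif bound by Myc, in 9 of 46 (19.6%) against 8.91%, and a GC box (GGGCGG) in 32 of 46 (69.6%) against 49.2%. A CCAAT box was found in 45.7% against 42.3% and a TATA box (TATAAA) in 8.70% against 14.8%. The motifs of NRF1 and YY1 were found in 0 of 46, against 1.47% and 1.06% of all genes, and the CRE (TGACGTCA) and the ZBTB33 motif in 1 of 46 each, against 2.54% and 0.755%. Matches to different motifs may share bases, and a match is a description of the sequence.

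The 250 bases before the start are shown for Ncl and Utp20, higher without overlap, for Imp3, lower without overlap, and for Ltv1, which differed by -0.01 and held both an ETS motif and an E-box in its listed window. Capitals mark matches to the ETS motif, the E-box, the GC box or CCAAT on either strand. They lie at chr1:86359456-86359705 (minus strand), chr10:88826815-88827064 (minus), chr9:56937250-56937499 (plus) and chr10:13193138-13193387 (minus).
Ncl: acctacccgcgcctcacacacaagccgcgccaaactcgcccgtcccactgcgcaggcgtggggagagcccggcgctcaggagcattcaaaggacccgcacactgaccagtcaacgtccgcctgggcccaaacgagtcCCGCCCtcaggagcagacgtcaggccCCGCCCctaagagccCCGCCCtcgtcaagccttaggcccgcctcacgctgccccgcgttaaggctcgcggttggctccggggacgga
Utp20: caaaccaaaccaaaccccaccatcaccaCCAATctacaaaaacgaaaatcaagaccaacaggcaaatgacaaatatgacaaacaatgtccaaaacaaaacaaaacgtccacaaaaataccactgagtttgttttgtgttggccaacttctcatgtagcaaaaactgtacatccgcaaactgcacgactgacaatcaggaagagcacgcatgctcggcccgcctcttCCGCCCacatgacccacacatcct
Imp3: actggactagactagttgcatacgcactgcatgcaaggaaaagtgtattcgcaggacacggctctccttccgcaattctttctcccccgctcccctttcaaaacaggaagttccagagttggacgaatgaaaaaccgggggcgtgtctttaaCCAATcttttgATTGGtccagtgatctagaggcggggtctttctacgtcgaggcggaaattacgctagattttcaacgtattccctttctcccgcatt
Ltv1: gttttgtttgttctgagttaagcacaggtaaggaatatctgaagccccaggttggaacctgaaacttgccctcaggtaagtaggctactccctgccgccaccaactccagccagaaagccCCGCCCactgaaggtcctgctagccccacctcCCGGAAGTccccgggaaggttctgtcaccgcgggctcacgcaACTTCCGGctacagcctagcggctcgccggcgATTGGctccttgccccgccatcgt
The Ncl stretch held 3 GC boxes, Utp20 held 1 GC box and 1 CCAAT, and Imp3 held 2 CCAAT boxes in opposite orientation. Utp20 was also among the genes with an E-box in the listed window, outside the 250 bases shown. Ltv1 held 2 ETS motifs, 1 GC box and 1 CCAAT, with its E-box after the start.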

How the data were processed

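For each array the authors deposited a table of linear intensity values, 1 for each probe set. The submitters' processing notes name GCOS, Affymetrix's array software, with neither version nor algorithm. Per the labels' protocols, 100 ng of total RNA was labelled in 2 cycles and 20 µg of cRNA was hybridised. Scan day and fluidics module were read from the instrument records: replicates 1 and 2 of both genotypes were scanned on the first day and replicate 3 of both on the second, and each fluidics module served a single genotype, so the effects of module and genotype cannot be told apart.

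Controls (64 of 45101 probe sets) were left out, 1.87 (the 10th percentile) was added before log2, and a filter on mean signal dropped the dimmest 40%, which left 27022. Genotype was the sole term in limma 3.58.1 (R 4.3.3), with an intensity trend in eBayes, two-sided. The fit was tested on simulated data. The brightest probe set stands for a gene. Reported with all values are Tcof1, the 4 factors of each class with the smallest p, 11 factors fixed by name (Fbl, Nop56, Nop58, Dkc1, Heatr1, Utp14a, Pes1, Bop1, Wdr12, Ncl and Npm1); the 2 genes with the smallest p of each other list are named. Others were chosen after their values were seen. Members and lists were chosen with earlier results of these data known, so lists were described and not tested. The 1.2-fold bound on intervals was chosen after values were seen. With 3 embryos per genotype, the number of arrays limits the precision. Alternatives covered the pseudocount, normalization, filter, variance prior, array weights, blocks, scan days, probe sets per gene and each array left out. Matching by the listed symbols alone was added after seeing the data. Figures were drawn with matplotlib 3.10.9.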

Additional observations from a re-analysis of the deposited data

How the results depend on the processing

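The count of called factors stayed at 0 under each alternative that gives a test, as did the count in the other pathway lists. None of the 21 factors given in full passed under any of these. Over all tested probe sets the same alternatives called 0 to 23, with 0 called without the intensity trend. A count of 0 among the factors therefore says little by itself. Scan day 2, with 1 array per genotype, gives no test. The median difference over the 59 factors moved by more than the spread between embryos within the first scan day (-0.020) and the second (0.074), and leaving out 1 array gave -0.0068 to 0.042. For the small-subunit factors it was -0.0032 and 0.076 by scan day and 0.0088 to 0.052 with 1 array left out, for the snoRNP proteins 0.11 on the second day (-0.01 to 0.04), for the large-subunit factors 0.020 on the second day (-0.04 to 0.01), and for the general nucleolar proteins 0.12 to 0.20 with 1 array left out. The second day holds 1 embryo per genotype. The cause of these shifts was not tested. The median of all tested probe sets stayed between -0.01 and 0.02 under every setting.

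Tcof1 lost its call without the intensity trend (limma adjusted p = 0.413), with the replicate number as a block (-0.88, adjusted p = 0.182), with scan day as a block (0.0906) and over the 4 arrays of day 1 (-0.95, 0.212). It was -0.74 between the 2 arrays of day 2 and -0.73 over all its probe sets, and -0.95 to -0.77 with 1 array left out. The labels state no pairing of embryos, so the numbers were not taken as pairs. Embryos with the same number did not deviate together (correlations of -0.08, -0.11 and -0.02 over tested probe sets). With the replicate block 10 of all tested probe sets were called, in place of 22, and 0 factors were called in either fit. The count with an unadjusted p under 0.05 was 2 to 7 over settings.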
